A study of Homo sapiens with 36 samples.

Results

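The genes of the proteasome, the particle that degrades ubiquitin-tagged proteins, were followed in IMR90 ER:RAS cells through RAS-induced senescence and treatment with the cardiac glycosides digoxin and ouabain. Members were the rows of the gene count table whose Ensembl identifiers map to protein-coding symbols that start with PSMA, PSMB, PSMC, PSMD, PSME, PSMF or PSMG and a number, with a mean of at least 1 CPM (counts scaled to the effective library size) in at least 1 of 12 groups. Of 49 such symbols among 57232 rows, 46 passed, and all 46 also passed the filter on low counts and were tested. The 3 symbols below the rule were PSMA8, PSMB11 and PSMG2, with highest group means of 0.0225, 0.0759 and 0.454 CPM, and the lowest members were PSMB10 at 2.5 CPM and PSMB9 at 3.14 CPM. Of the members, 44 encode subunits, regulators or assembly chaperones of the proteasome. The other 2, PSMC3IP and PSME3IP1, are named for a partner of a subunit and were kept apart. No row was matched to the core subunit gene PSMB3.

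IMR90 are human lung fibroblasts, and the ER:RAS line carries RAS fused to a hormone-binding domain of the oestrogen receptor, so that 4-hydroxytamoxifen (4OHT) switches it on. All cells were of passage 14 and grew in 10% FBS for 6 days with new medium on day 3, and 100 nM 4OHT made the senescent groups. The 36 libraries formed 12 groups of 3. There were 4 treatments, namely vehicle on proliferating cells and vehicle, digoxin or ouabain on senescent ones. Each was sampled at 16 h, at 36 h, and at 36 h in the presence of a caspase inhibitor. Doses of the drugs and of the inhibitor, the promoter of the construct, and whether the line is 1 clone were not given in the sources used here, and proliferating cells received no glycoside. Since nothing states that replicates are separate cultures, p-values here speak only of the spread between libraries, which may be technical.

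The core particle of the proteasome is a stack of rings of alpha subunits, which gate it, and beta subunits, of which PSMB5, PSMB6 and PSMB7 carry the cutting sites. A 19S cap, with a ring of ATPases (PSMC genes) and non-ATPase subunits (most PSMD genes), recognises, unfolds and feeds in tagged proteins. Under interferon, cells swap the cutting subunits for PSMB8, PSMB9 and PSMB10, which makes the immunoproteasome, a source of peptides for MHC class I. PSME1 and PSME2 form an interferon-induced activator ring, PSME3 and PSME4 form other activators, and PSMF1 binds the core as an inhibitor. PSMG proteins, PSMD5, PSMD9 and PSMD10 help to assemble the particle. When proteasome activity falls short, the factor NRF1 (gene NFE2L1) is cut free and raises the transcription of most subunit genes.

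Library totals ran from 10854351 to 21446415 counts. HRAS, the RAS gene whose reads would include the construct if that is HRAS, was 2.32-fold, 2.23-fold and 2.39-fold higher in senescent than in proliferating cells at 16 h, at 36 h and at 36 h with the inhibitor. Over senescent vehicle cells it was 2.63-fold and 3.77-fold higher with digoxin and 2.12-fold and 4.11-fold higher with ouabain, at 16 h and 36 h. Fibroblast markers (8 of 8 above 1 CPM) summed to 14481 to 16914 CPM in proliferating and 4752 to 9314 CPM in senescent libraries. Markers of epithelial cells summed to at most 2.07 CPM, of leukocytes to at most 2.71 CPM and of endothelial cells to 1.72 to 17.1 CPM. Replicate 2 of proliferating cells at 16 h stood apart. Its 30 measured subunit genes of the 26S particle (core plus cap) summed to 2444 CPM against 3694 and 3438 CPM in its group, and 2.52% of its counts were mitochondrial ribosomal RNA against 0.864% and 0.775%. That share also moved with the groups, from 0.775% to 1.01% in the other proliferating libraries to 1.16% to 1.52% with vehicle, 1.46% to 1.87% with digoxin and 1.66% to 2.43% with ouabain in senescent cells. The part of HRAS and of this share in the results was not tested.

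Levels can be set between genes only per length. In senescent vehicle cells at 36 h, the cap scaffold gene PSMD2 was highest at 181 CPM per kilobase of exon, before the cutting subunits PSMB7 at 128 and PSMB5 at 97.2 CPM per kilobase. PSMB9 was lowest at 0.167 CPM per kilobase. Among subunits that occur once in each ring or cap, PSMA6 (1.16) and PSMA2 (2.08 CPM per kilobase) also stood low. Exons annotated for PSMA1, PSMA2, PSMA6, PSMB10 and PSMD9 overlap another gene on the same strand over 14.1% to 34.8% of their length. Those of PSMC1 overlap NRDE2 on the other strand over 75.8%. Other-strand overlaps also cover 30.7% of PSMD7, 20.6% of PSMB8, 19.5% of PSMC5 and 15% of PSMG4, with smaller ones in some further members. The strand setting of the counting is unknown, and 15 of 44 pseudogenes named after these genes reached 1 CPM (PSMC1P1 was highest at 37.8 CPM), so levels of these genes are uncertain.

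**Figure D1:**
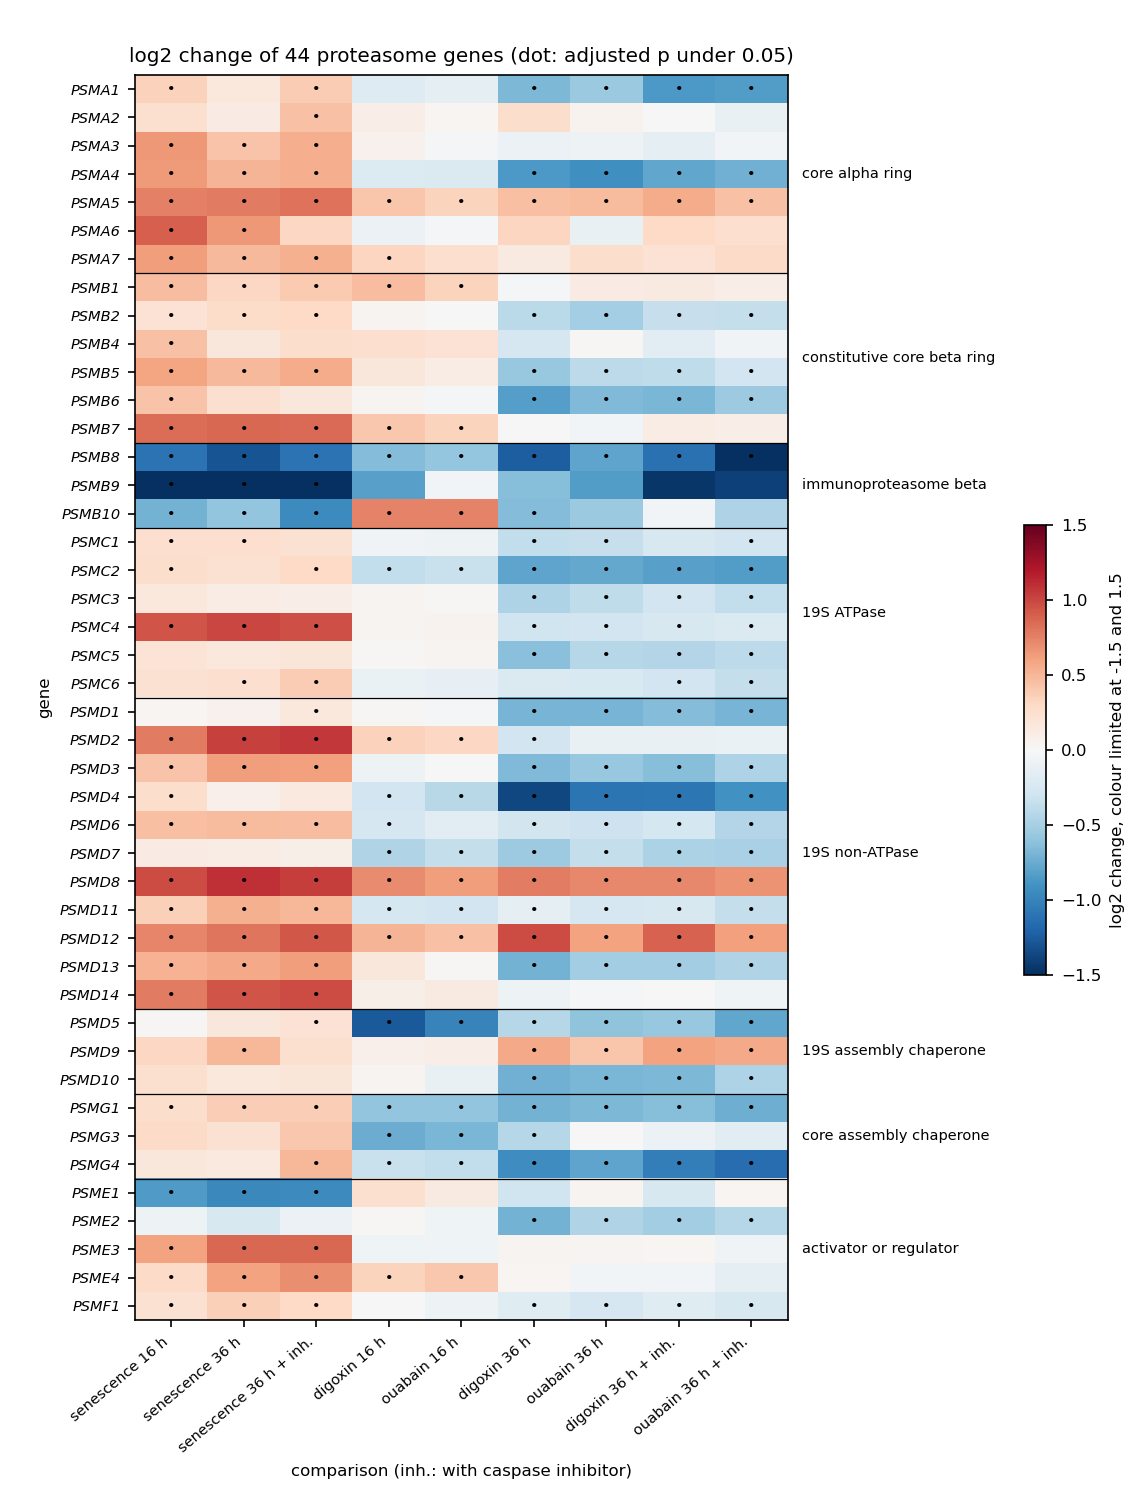
Log2 change of each of the 44 proteasome genes (rows, grouped by role) in 9 comparisons (columns: senescent against proliferating vehicle cells, and each drug against senescent vehicle cells), with a dot where the adjusted p was under 0.05. Colour stops at -1.5 and 1.5, which PSMB9 in senescence and PSMB8 with ouabain and the inhibitor exceed. Senescence columns are mostly red outside the immunoproteasome genes, and the 36 h drug columns are mostly blue except for PSMA5, PSMD8, PSMD9 and PSMD12.

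The first comparison asked how the proteasome genes differ between senescent and proliferating vehicle cells. Most genes of the standard particle were higher in senescence, while the immunoproteasome genes and PSME1 were lower. At 16 h, 28 of 44 genes rose and 4 fell (median log2 change 0.30), where 26.4% of all 18696 tested genes rose, 25.2% fell and the median was 0.01. At 36 h, 25 rose and 4 fell (median 0.29), against 26.7% and 25.8% of all genes. With the caspase inhibitor, 28 rose and 4 fell (median 0.39), against 26.6% and 25.7%. The same 21 genes rose in all 3 comparisons, which share no library, and the same 4 fell. Over all tested genes, 3762 rose and 3547 fell in all 3. Among the 4 proteasome genes that fell, PSMB9 met the level rule only through proliferating groups, so its fall is partly built into its membership. Calls are from edgeR's quasi-likelihood test with Benjamini-Hochberg adjustment over all genes. In bulk RNA, fewer cells of a kind and less RNA per cell cannot be told apart.

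The 16 h count rested in part on the spread of the proliferating libraries. With the compared groups fitted alone 11 genes rose at 16 h, and without replicate 2 of the proliferating cells 21 rose and 5 fell.

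The cap's non-ATPase subunits held the largest rises. PSMD8, a subunit of the cap's lid, stood at 117, 104 and 128 CPM in proliferating and 241, 255 and 249 CPM in senescent libraries at 36 h. The groups did not overlap at that time, nor at 16 h (138, 94.7 and 127 against 234, 242 and 233 CPM). Its log2 change was 1.10 ± 0.09 (SE) at 36 h, 0.98 ± 0.09 at 16 h and 1.03 ± 0.09 with the inhibitor (adjusted p = 3.9e-13, 8.7e-12 and 2.3e-12, edgeR). PSMD2 rose from 498, 475 and 487 to 1001, 991 and 976 CPM at 36 h, a change of 1.02 ± 0.06. PSMD12, another lid subunit, rose 1.75-fold, and PSMD14, the deubiquitinase of the lid, 1.92-fold. At 16 h 9 of 11 non-ATPase genes rose and none fell, where 26.4% of all genes rose and 25.2% fell. PSMD7, the partner of PSMD14 in the lid, was at 0.12, 0.12 and 0.09 in the 3 comparisons and was not called.

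Among the 6 ATPases, PSMC4 moved furthest, from 63.7, 61 and 64.6 to 128, 128 and 124 CPM at 36 h (log2 change 1.01 ± 0.08, adjusted p = 8.5e-13, edgeR). Its senescent libraries lay above all proliferating ones in each comparison. PSMC1, PSMC2 and PSMC6 were at 0.25, 0.23 and 0.25 at 36 h, with PSMC1 and PSMC6 called, and PSMC3 and PSMC5 were called in none of the 3 comparisons.

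In the core, 6 of 7 alpha and all 6 measured constitutive beta genes rose at 16 h, where 26.4% of all genes rose. PSMA5 rose 1.68-fold, 1.72-fold and 1.75-fold in the 3 comparisons, and the beta subunit PSMB7, with trypsin-like activity, 1.79-fold, 1.82-fold and 1.81-fold. PSMB5, the chymotrypsin-like subunit, stood at 111, 113 and 143 CPM in proliferating and 181, 163 and 171 CPM in senescent cells at 36 h (log2 change 0.49 ± 0.13, adjusted p = 0.0015, edgeR). PSMB6, the caspase-like subunit, was called at 16 h (0.43 ± 0.13), and that call was lost without replicate 2 of the proliferating cells (0.20, adjusted p = 0.0711, edgeR). Its changes of 0.24 and 0.17 at 36 h were not called.

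Activators and inhibitor split. PSME3, the nuclear activator, rose from 123, 111 and 119 to 220, 217 and 208 CPM at 36 h (0.86 ± 0.06), and PSME4, an activator linked to histone turnover, rose 1.52-fold. The inhibitor gene PSMF1 rose by smaller amounts, 0.36 ± 0.06 at 36 h. PSME1 fell in all 3 comparisons, with 49.9, 48.7 and 64.7 CPM in proliferating and 28.5, 28.4 and 26.6 CPM in senescent cells at 36 h. Its partner PSME2 was at -0.24 ± 0.14 there (adjusted p = 0.14, edgeR), and its groups of libraries overlapped at 36 h. Of the assembly genes, PSMG1 rose in all 3 comparisons (1.21-fold to 1.29-fold). PSMD9 was called higher at 36 h (0.50 ± 0.14), and PSMD5 (0.21) and PSMG4 (0.50) with the inhibitor.

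The immunoproteasome genes ran the other way. PSMB8 stood at 19.3, 22.1 and 23.6 CPM in proliferating and 9.52, 8.74 and 8.3 CPM in senescent cells at 36 h. The libraries of the groups did not overlap in any of the 3 comparisons, though replicate 2 of proliferating cells at 16 h, at 8.84 CPM, lay near the highest senescent library at 8.11 CPM. It fell 2.15-fold at 16 h, 2.46-fold at 36 h and 2.15-fold with the inhibitor. PSMB9 stood at 2.37, 2.97 and 4.08 CPM against 0.657, 0.414 and 0.47 CPM at 36 h, from 211 counts over the proliferating and 32 over the senescent group. It was 10.1-fold, 6.17-fold and 5.28-fold lower in the 3 comparisons, at 16 h from 129 counts against 13. PSMB9 met the level rule only through proliferating groups (means of 2.22 to 3.14 CPM), as its senescent group means were 0.117 to 0.514 CPM. Its fall in senescence is thus partly built into its membership. PSMB10 fell less, 1.63-fold, 1.51-fold and 1.94-fold, and its 16 h and 36 h calls were lost without the filter on low counts (adjusted p = 0.0534 and 0.0778, edgeR) and in some fits that left out 1 library.

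Per length, PSMB8 amounted to 10.5% ± 0.907 (SD, n = 3) of PSMB5, the subunit it replaces, in proliferating cells at 36 h. In senescent cells the share was 3.04% ± 0.158, and with digoxin 1.91% ± 0.384 and ouabain 2.28% ± 0.214. PSMB9 amounted to 1.83% ± 0.26 of PSMB6 in proliferating and 0.257% ± 0.0653 in senescent cells, and PSMB10 to 1.9% ± 0.242 and 0.701% ± 0.07 of PSMB7. At each time the proliferating libraries held the highest shares of PSMB8 and PSMB9.

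A letter pattern of interferon response elements, GAAANNGAA on either strand, was found near the starts of PSMB10, PSME1 and PSME2, and these 3 sites are shown because PSME1 and PSME2 form 1 ring, of which PSME1 fell in senescence and PSME2 was not called. The pattern was also found in PSMA4, PSMB4, PSMC2 and PSMG4, none of which fell in senescence, and not in the window of PSMB9. Capitals mark the pattern, which PSME1 carries on the other strand. RefSeq sequences of GRCh38.p14 are given 5′ to 3′ in the direction of the gene, from chr16:67936855-67936879 (minus strand), chr14:24136192-24136216 (plus strand) and chr14:24146622-24146646 (minus strand).
PSMB10: gtaaaggcGAAAGCGAAagcaggaa
PSME1: ctaccgctTTCGCTTTCccttcgcg
PSME2: tggggagtGAAAGCGAAagcccggg
The pattern occurred in 7 of 38 proteasome promoters that the RefSeq table holds (18.4%) and in 8.11% of its 35116 promoters. TTCNNNGAA, a pattern of STAT sites, was in 4 of the 38 (10.5%) and in 7.66% of all. A match of letters shows no binding.

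**Figure D2:**
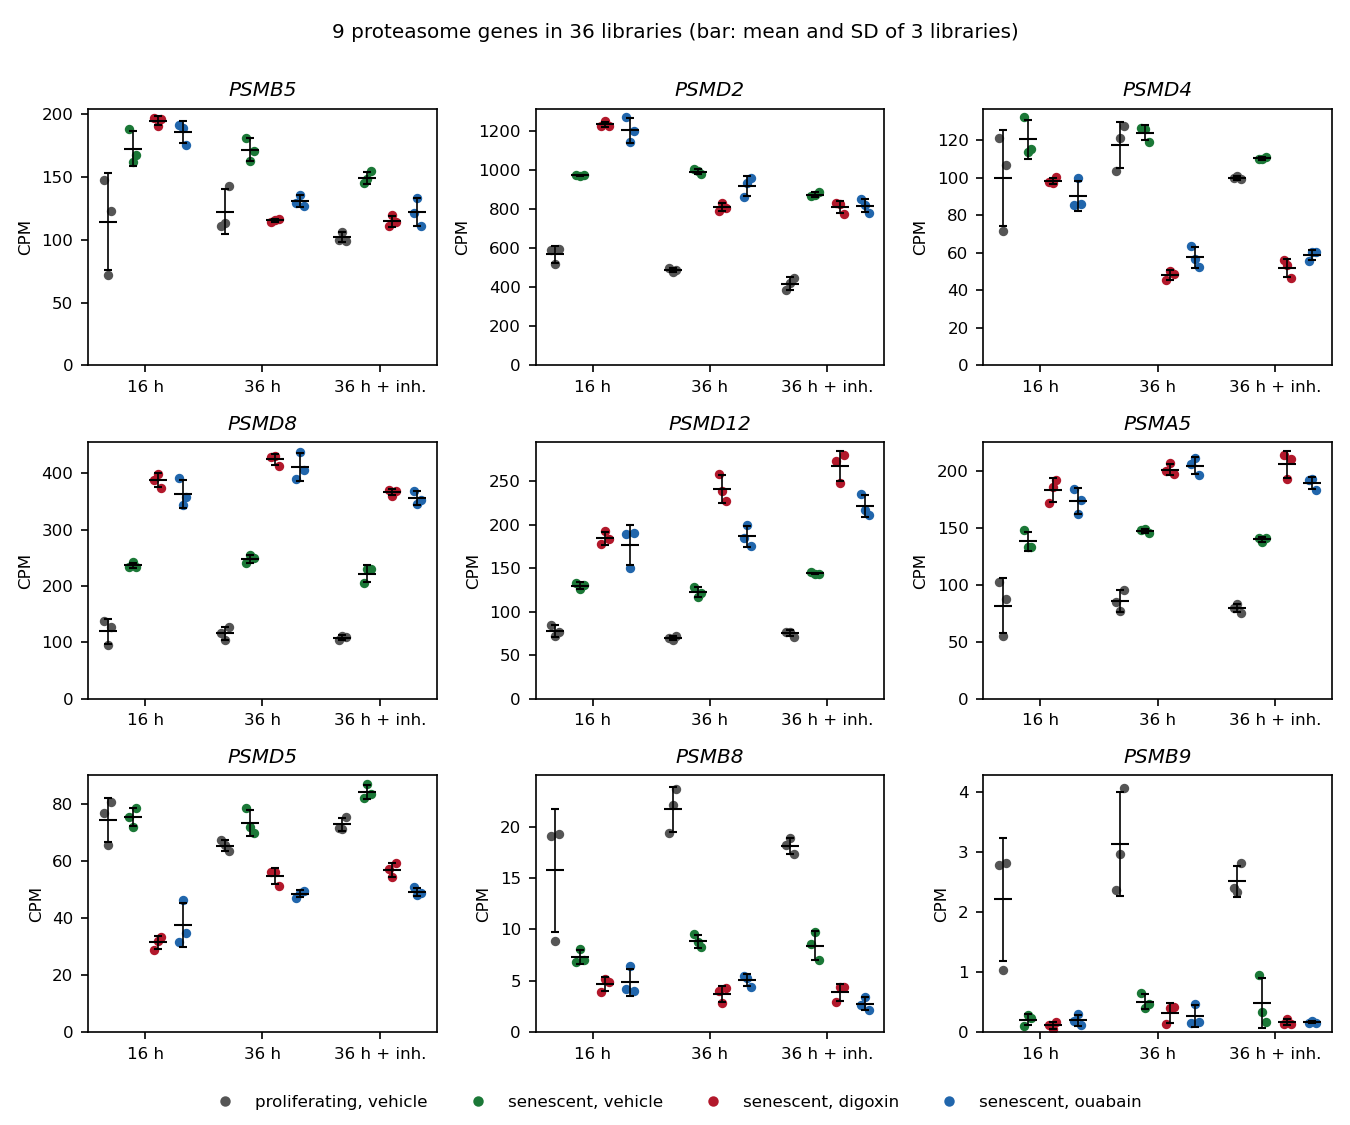
CPM of 9 proteasome genes in each of 36 libraries (points), with the mean and SD of 3 libraries, by time on the horizontal axis and by group in colour. PSMD8, PSMD12 and PSMA5 step up from proliferating to senescent to drug-treated cells, PSMB8 steps down, PSMB9 is lower in senescent than in proliferating libraries, and PSMD4 falls with the drugs at 36 h to between 45.5 and 63.7 CPM.

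The second set of comparisons asked what digoxin, an inhibitor of the sodium pump, did to these genes in senescent cells. At 16 h the genes split evenly, with 9 of 44 higher and 10 lower (median 0.03) where 28.3% of all genes rose and 31.3% fell. This split depended on scaling. With library size alone 2 rose and 24 fell, as the median of all genes moved by -0.31, and with length and GC trends removed 11 rose and 6 fell. Relative to the median of all genes, the median of the 44 was 0.01 under both scalings.

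The rises at 16 h included cap and core genes. PSMD8 went from 234, 242 and 233 to 388, 399 and 374 CPM (0.71 ± 0.09, adjusted p = 6.7e-09, edgeR). PSMD12 went from 134, 126 and 131 to 178, 193 and 184 CPM (0.50 ± 0.08), and PSMD2 from 971, 969 and 973 to 1222, 1246 and 1224 CPM (0.34 ± 0.06). None of these libraries overlapped with vehicle. PSMA5 rose 1.33-fold, PSMB7 by 0.40 ± 0.13 and PSME4 by 0.33 ± 0.09. With library size alone PSMD8 and PSMD12 kept their calls and the other rises at 16 h, PSMD2 and PSMA5 included, lost theirs. PSMB10 was at 0.74 ± 0.26 from 101 counts over the group against 72, a call lost in several alternatives.

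Of the 10 falls at 16 h, 4 were of assembly chaperones, where 31.3% of all genes fell. PSMD5, which holds ATPases during assembly of the cap's base, dropped from 75.5, 72.1 and 78.7 to 29, 32.2 and 33.5 CPM. That was the largest change among the 44, -1.26 ± 0.09 (adjusted p = 7.4e-14, edgeR). All 3 core assembly chaperones fell, PSMG3 by 0.75 ± 0.17, PSMG1 by 0.59 ± 0.11 and PSMG4 by 0.33 ± 0.14. PSMB8 fell from 6.87, 8.11 and 7 to 3.95, 5.22 and 4.9 CPM. PSMC2, PSMD4, PSMD6, PSMD7 and PSMD11 fell by 0.25 to 0.45.

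By 36 h most proteasome genes were lower with digoxin. Of 44, 27 fell and 4 rose (median -0.39), where 32.4% of all genes fell, 31.6% rose and the median was -0.02. With the caspase inhibitor 24 fell and 4 rose (median -0.25), against 32.1% and 30.3%. In fits of the compared groups alone 7 rose in each arm, and with library size alone 2 rose in the arm without the inhibitor. The 4 that rose were PSMA5, PSMD8, PSMD9 and PSMD12 in both arms, where 85.5% of all genes higher without the inhibitor were higher with it. Of the 27 that fell, 23 (85.2%) also fell with the inhibitor, near the 86.9% of all genes. The 10 genes lower at 16 h were also lower at 36 h, beside 62.5% of all genes lower at 16 h.

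PSMD4, a ubiquitin receptor of the cap, fell furthest, from 127, 126 and 119 to 45.5, 50.4 and 48.5 CPM (-1.36 ± 0.11, adjusted p = 1.0e-12, edgeR). PSMB8 fell to 4.01, 2.9 and 4.34 CPM, 2.36-fold lower. PSMG4 fell 1.9-fold, PSMA4 1.82-fold and PSMB6 1.78-fold. PSMB5 fell from 181, 163 and 171 to 114, 116 and 116 CPM, beside 111, 113 and 143 CPM in proliferating cells at that time. The libraries of digoxin and vehicle did not overlap for any gene named here. PSMB7 (0.01 ± 0.13), PSMD14 (-0.08 ± 0.09) and PSME3 (0.04 ± 0.06) were not called.

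Genes within the cap's base moved by different amounts, and so did those within the lid, where PSMD8 and PSMD12 rose. PSMC2, an ATPase, went from 151, 150 and 144 to 84.7, 88.7 and 82.6 CPM (-0.80 ± 0.10), after 109 to 112 CPM at 16 h against 137 to 148 CPM in vehicle. PSMD1, the scaffold that stands beside PSMD2 in the base, stood at 214, 218 and 241 CPM with digoxin at 16 h, overlapping with vehicle at 220, 215 and 229 CPM. At 36 h it fell from 248, 242 and 239 to 148, 151 and 150 CPM (-0.70 ± 0.06, adjusted p = 3.4e-12, edgeR), while PSMD2 fell by 0.29 ± 0.06. In the lid, PSMD3 fell from 155, 156 and 144 to 95.4, 96.2 and 97 CPM and PSMD13 from 163, 160 and 161 to 98.4, 105 and 92.3 CPM, so neither overlapped with vehicle. PSMD10, an assembly chaperone also known as gankyrin, was at 63.8, 61.1 and 62.1 CPM at 16 h, beside 58.9 to 63.1 CPM in vehicle. At 36 h it fell from 60.5, 61.2 and 59.5 to 34.5, 36.4 and 39.1 CPM.

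With the caspase inhibitor PSMD12 and PSMD4, the largest rise and the largest fall with digoxin without it, again lay apart from vehicle at 36 h. PSMD12 went from 145, 144 and 144 CPM to 274, 248 and 280 CPM with digoxin and 236, 217 and 211 CPM with ouabain. PSMD4 went from 110, 110 and 111 CPM to 55.9, 53.5 and 46.7 CPM with digoxin and 55.9, 60.3 and 60.2 CPM with ouabain. PSMD2, lower with digoxin without the inhibitor, was called in neither inhibitor arm (-0.11 with digoxin and -0.10 with ouabain). With ouabain it was not called without the inhibitor either. Its mean with digoxin was 809 CPM without and 810 CPM with the inhibitor, while that of vehicle was 989 and 873 CPM. Whether the inhibitor changed the effect of a drug was not tested.

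By role, 5 of 6 ATPases fell at 36 h (all except PSMC6 at -0.22) and 8 of 11 non-ATPases fell and 2 rose. Of all tested genes, 32.4% fell and 31.6% rose. Of the constitutive beta genes 3 of 6 fell. Of the alpha genes 2 of 7 fell, near the share of all genes, and 1 rose. All 3 core chaperones fell. The activator gene PSME2 fell by 0.71 ± 0.14 while PSME1 was at -0.30 ± 0.15 (adjusted p = 0.071, edgeR), and PSMF1 fell by 0.19 ± 0.06. The fall of PSMB10 at 36 h (adjusted p = 0.042, edgeR) was lost in most alternatives.

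Summed over the 30 subunit genes of the 26S particle, proliferating libraries held 3113 to 3456 CPM at 36 h, senescent vehicle libraries 4647 to 4819 CPM, digoxin 4073 to 4207 CPM and ouabain 4259 to 4371 CPM. At 16 h the sums were 5186 to 5292 CPM with digoxin, above the 4518 to 4837 CPM of vehicle. Sums weigh abundant genes most. From vehicle to digoxin at 16 h, mean PSMD2 went from 971 to 1231 CPM and PSMD8 from 237 to 387 CPM. The ATPase genes summed to means of 681 and 648 CPM, and the median log2 change of the 44 genes was 0.03. On library size alone the 16 h order of the sums turned, with 4505 to 4679 CPM under digoxin and 4907 to 5309 CPM under vehicle. At 36 h the sum under digoxin stayed below vehicle on that scale (3561 to 3666 against 5073 to 5217 CPM) and was also below proliferating libraries (3736 to 4168 CPM).

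**Figure D3:**
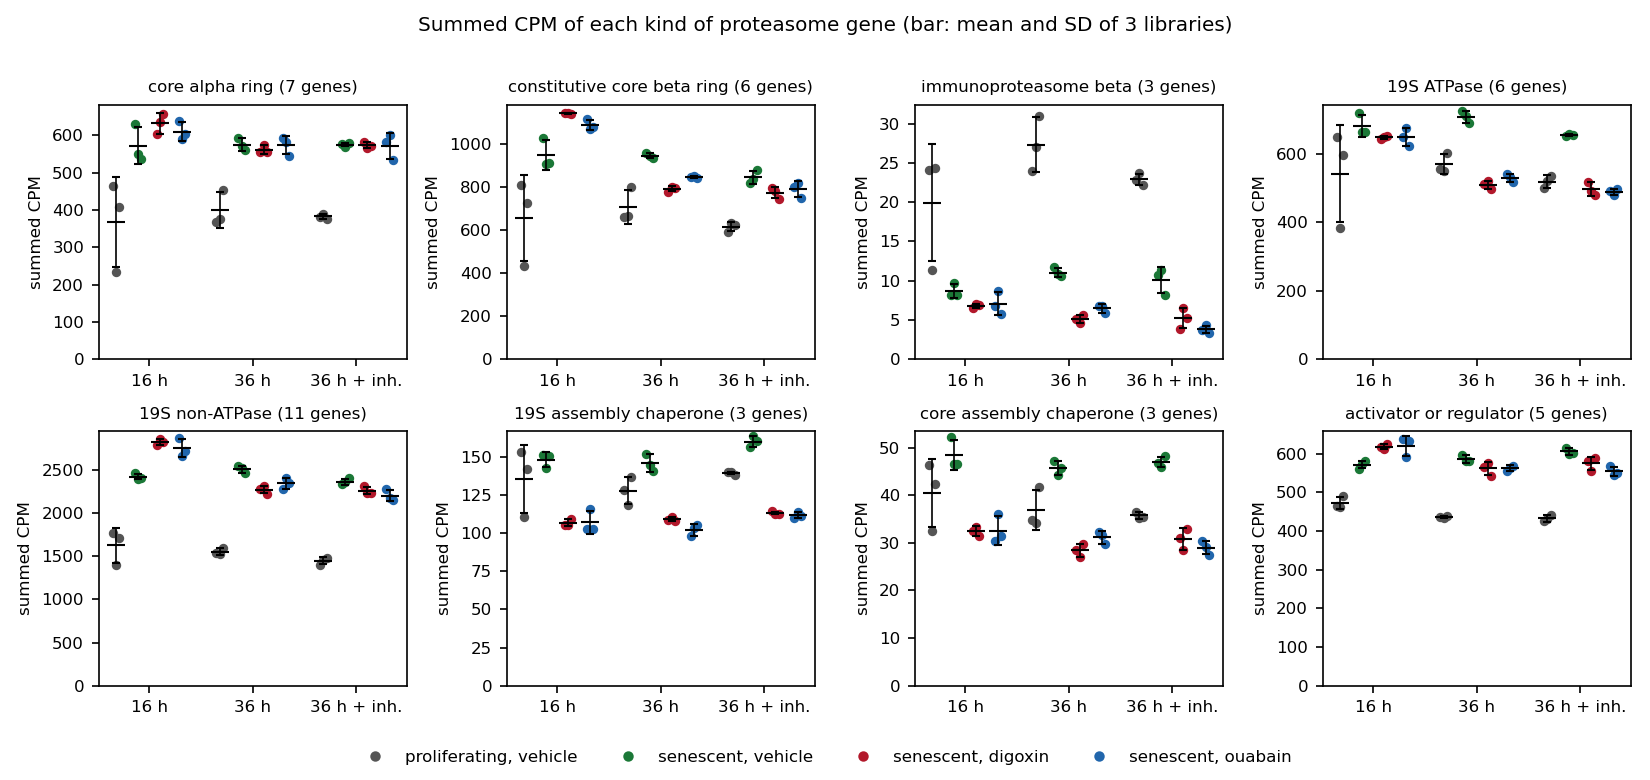
Summed CPM of the genes of each role (panels) in every library (points, with mean and SD of 3 libraries), by time and group. Core and cap sums lie higher in senescent than in proliferating libraries and fall with the drugs at 36 h for the ATPases to 498 to 540 CPM. At each time immunoproteasome sums are highest in proliferating libraries, and both kinds of assembly chaperone are lower with drugs at each time.

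The genes higher in senescence at 16 h were set against those lower with digoxin at 36 h, comparisons that share no library. Of the 28, 16 (57.1%) were lower with digoxin, beside 61.4% of all 44 proteasome genes, so the share was near that of the members as a whole. Of all tested genes higher in senescence, 35.7% were lower with digoxin. The 16 made up 59.3% of the 27 that fell, near the 63.6% of all 44 that were higher in senescence. Of all tested genes lower with digoxin, 29.2% were higher in senescence. The 3 that rose in both were PSMA5, PSMD8 and PSMD12. They were 10.7% of the 28, near the 9.09% of all 44 that rose with digoxin. Of all tested genes higher in senescence, 38.5% rose with digoxin.

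These 3 genes and PSMD9 are shown by their promoters, since they moved together against the other members at 36 h. PSMD12 stood at 129, 117 and 122 CPM with vehicle and 258, 239 and 227 CPM with digoxin at 36 h (0.98 ± 0.08, adjusted p = 3.3e-13, edgeR). PSMD8 went to 429, 431 and 414 CPM (0.77 ± 0.09). PSMA5 went from 148, 149 and 146 to 200, 207 and 197 CPM (0.45 ± 0.11). PSMD9, a chaperone of the cap's base, went from 13.2, 11.6 and 11.6 to 18.2, 18 and 17.6 CPM (0.57 ± 0.13, not called with library size alone at 0.25). Digoxin and vehicle libraries were apart for all 4. The RefSeq sequence upstream of each start on GRCh38.p14 is given 5′ to 3′ in the gene's direction, from chr1:109426449-109426698 (minus strand) for PSMA5, chr19:38374321-38374570 (plus) for PSMD8, chr12:121888540-121888789 (plus) for PSMD9 and chr17:67366578-67366827 (minus) for PSMD12. Capitals mark TGACNNNGC, the core of the antioxidant response element that NRF1 and NRF2 bind, CCAAT, and CTTCCGG, a core of ETS sites, each on either strand.
PSMA5: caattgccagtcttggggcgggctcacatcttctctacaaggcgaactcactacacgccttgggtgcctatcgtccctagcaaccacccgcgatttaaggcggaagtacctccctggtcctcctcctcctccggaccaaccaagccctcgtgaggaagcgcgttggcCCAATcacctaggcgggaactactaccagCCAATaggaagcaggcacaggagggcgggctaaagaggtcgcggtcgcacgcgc
PSMD8: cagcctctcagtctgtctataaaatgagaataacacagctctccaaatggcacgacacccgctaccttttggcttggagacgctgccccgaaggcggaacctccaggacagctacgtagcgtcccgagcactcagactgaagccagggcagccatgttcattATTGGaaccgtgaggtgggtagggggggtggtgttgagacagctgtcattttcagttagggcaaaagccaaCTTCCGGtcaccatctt
PSMD9: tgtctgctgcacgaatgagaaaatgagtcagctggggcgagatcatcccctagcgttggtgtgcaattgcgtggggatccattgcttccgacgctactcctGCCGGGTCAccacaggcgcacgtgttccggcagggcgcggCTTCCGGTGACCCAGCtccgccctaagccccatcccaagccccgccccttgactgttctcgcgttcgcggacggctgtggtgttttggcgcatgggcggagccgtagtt
PSMD12: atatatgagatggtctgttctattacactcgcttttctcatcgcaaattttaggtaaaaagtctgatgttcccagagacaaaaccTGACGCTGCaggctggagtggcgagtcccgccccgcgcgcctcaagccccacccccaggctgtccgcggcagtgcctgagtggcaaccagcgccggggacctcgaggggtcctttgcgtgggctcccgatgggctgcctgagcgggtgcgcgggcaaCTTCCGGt
TGACNNNGC was found at 2 places in PSMD9, once in PSMD12 and not in these windows of PSMA5 and PSMD8. In PSMD9 a CTTCCGG is followed directly by a TGACNNNGC, so the capitals run together. Over 38 matched promoters, TGACNNNGC was in 11 (28.9%) against 13.3% of all 35116 promoters, and CCAAT in 17 (44.7%) against 34.6%. CTTCCGG, searched after the sequences were seen, was in 12 (31.6%) against 10.3%. These shares come from the scan described for GAAANNGAA, which runs 50 bases past the start and so beyond the printed sequences. Of the genes with TGACNNNGC, PSMC4, PSMD1, PSMD3, PSMD5, PSME2 and PSMG1 fell with digoxin at 36 h, and PSMD9 and PSMD12 rose. The others, PSMB9, PSME1 and PSME4, were not called. Of all 44 proteasome genes, 27 fell and 4 rose there.

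Ouabain, a glycoside with a rhamnose on its steroid where digoxin carries a chain of digitoxose sugars, was measured against the same vehicle libraries. At 16 h, 8 of 44 rose and 9 fell (median -0.02), where 25.1% of all genes rose and 28.4% fell. With library size alone 1 rose and 26 fell, as the median of all genes moved by -0.28, and 4 rose without replicate 1 of ouabain and 5 without replicate 3 of vehicle. At 36 h, 24 fell and 4 rose (median -0.32), against 30.8% and 30.2% of all genes, and with the inhibitor 25 fell and 4 rose (median -0.36), against 30.6% and 28.9%. The 4 were PSMA5, PSMD8, PSMD9 and PSMD12 in both arms (replicate 1 of ouabain overlapped with vehicle for PSMD9 at 36 h). Of all genes higher with ouabain at 36 h, 82.9% were also higher with the inhibitor. In the inhibitor arm 7 of the 44 rose when the compared groups were fitted alone.

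PSMD8 stood at 391, 343 and 357 CPM with ouabain at 16 h and 390, 438 and 405 CPM at 36 h, each above all vehicle libraries (0.62 ± 0.09 and 0.73 ± 0.09). PSMA5 rose 1.26-fold and 1.39-fold, and its 16 h call, like that of PSMD12, was lost with library size alone. PSMD4 fell to 63.7, 56.9 and 52.3 CPM at 36 h (-1.10 ± 0.11, adjusted p = 1.6e-10, edgeR), and PSMA4 fell 1.89-fold. PSMD5 was at 31.8, 46.4 and 34.8 CPM at 16 h, a fall of 1.00 ± 0.09 in which replicate 2 lay nearest to vehicle. PSMB8 fell from 9.52, 8.74 and 8.3 to 5.45, 5.34 and 4.41 CPM at 36 h and was 2.99-fold lower with the inhibitor. Of the 28 genes higher in senescence at 16 h, 15 (53.6%) were lower with ouabain at 36 h, near the 54.5% of all 44 proteasome genes. Of all tested genes higher in senescence, 35% were lower with ouabain.

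The drugs were also tested against each other at 16 h, at 36 h and at 36 h with the inhibitor, 3 comparisons over all genes. The doses are unknown, so a difference between the compounds and one between their doses cannot be told apart. At 16 h edgeR called none of 44 genes, where 3.95% of all genes were higher and 0.984% lower with ouabain. DESeq2 called none either. An unadjusted p under 0.05 in edgeR was found for 1 of the 44, beside 17.3% of all genes. At 36 h 1 was lower, PSMD12, where 3.85% of all genes were lower and 1.52% higher. It stood at 185, 199 and 175 CPM with ouabain and 258, 239 and 227 CPM with digoxin, a difference of -0.37 ± 0.08 (95% interval -0.53 to -0.21, adjusted p = 0.0036, edgeR), with no overlap of libraries. With the inhibitor its difference was -0.27 (-0.43 to -0.11, adjusted p = 0.0682, edgeR). There edgeR called none of 44, against 1.01% of all genes lower and 0.439% higher, and DESeq2 called 1 lower. The unadjusted p of edgeR was under 0.05 for 3 of the 44, beside 13.1% of all genes.

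Other 36 h differences were bounded by their intervals. For PSMD8 the difference was -0.05 (-0.22 to 0.13), for PSMA5 0.02 (-0.20 to 0.25) and for PSMD1, the other large cap scaffold, 0.00 (-0.13 to 0.12). PSMB5 at 0.18 (-0.08 to 0.44), PSMB8 at 0.45 (-0.05 to 0.95) and PSMB9 at -0.20 (-1.50 to 1.11) were measured less exactly. Several intervals left out 0 without a call after adjustment, among them PSMA6 at -0.43 (-0.77 to -0.09, adjusted p = 0.13, edgeR), PSMD4 at 0.26 (0.03 to 0.50, adjusted p = 0.189, edgeR) and PSME1 at 0.34 (0.04 to 0.64, adjusted p = 0.184, edgeR). When the 36 h groups were fitted alone 9 genes were higher with ouabain, and with library size alone 1 was higher and 1 lower.

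**Figure D4:**
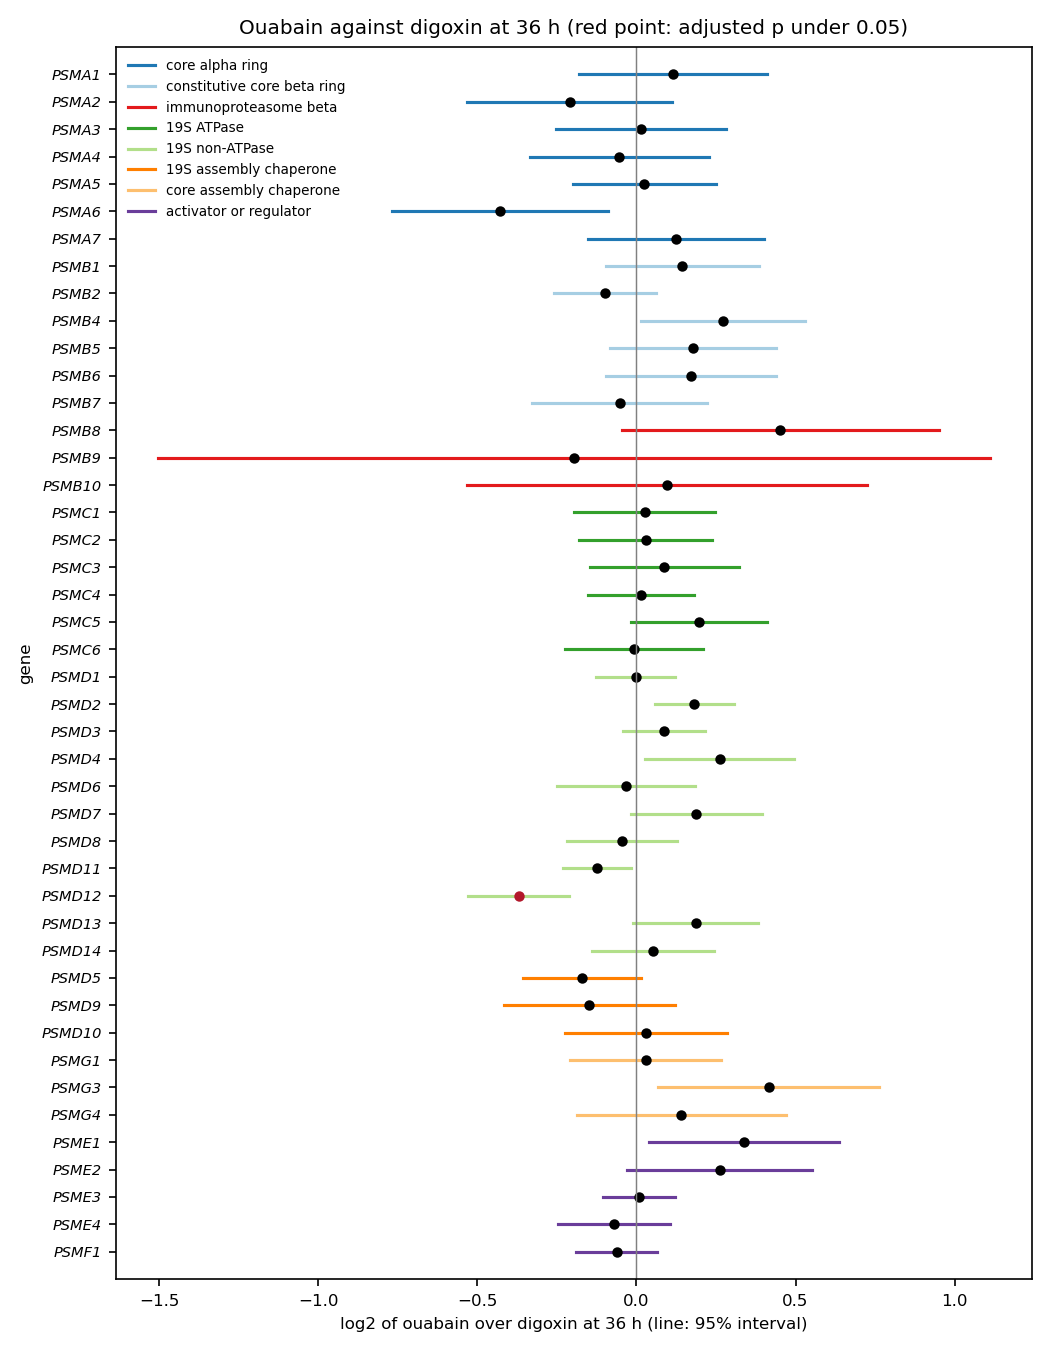
Log2 of ouabain over digoxin at 36 h in senescent cells for 44 proteasome genes (points), with 95% intervals coloured by role. PSMD12 at -0.37 is the only gene with an adjusted p under 0.05, and the interval of PSMB9, from -1.50 to 1.11, is the widest.

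The effect of each drug was compared between 36 h and 16 h by an interaction term. For digoxin 22 of 44 genes had a lower and 3 a higher effect at 36 h (median difference -0.37), where 19.3% and 23.4% of all genes did. For ouabain 15 were lower and 2 higher (median -0.24), against 16.7% and 18.4%. Without replicate 1 of ouabain at 16 h, none was higher. PSMD4 went from -0.29 at 16 h to -1.36 at 36 h with digoxin, a difference of -1.07 ± 0.16 (adjusted p = 9.0e-07, edgeR). PSMD13, a lid subunit, differed by -0.88 ± 0.14, and PSMB6 and PSMB5 by -0.87 ± 0.18 and -0.75 ± 0.18. PSMD5 went the other way, from -1.26 to -0.43 (0.83 ± 0.13, adjusted p = 2.0e-06, edgeR), and PSMD12 from 0.50 to 0.98 (0.47 ± 0.11).

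**Figure D5:**
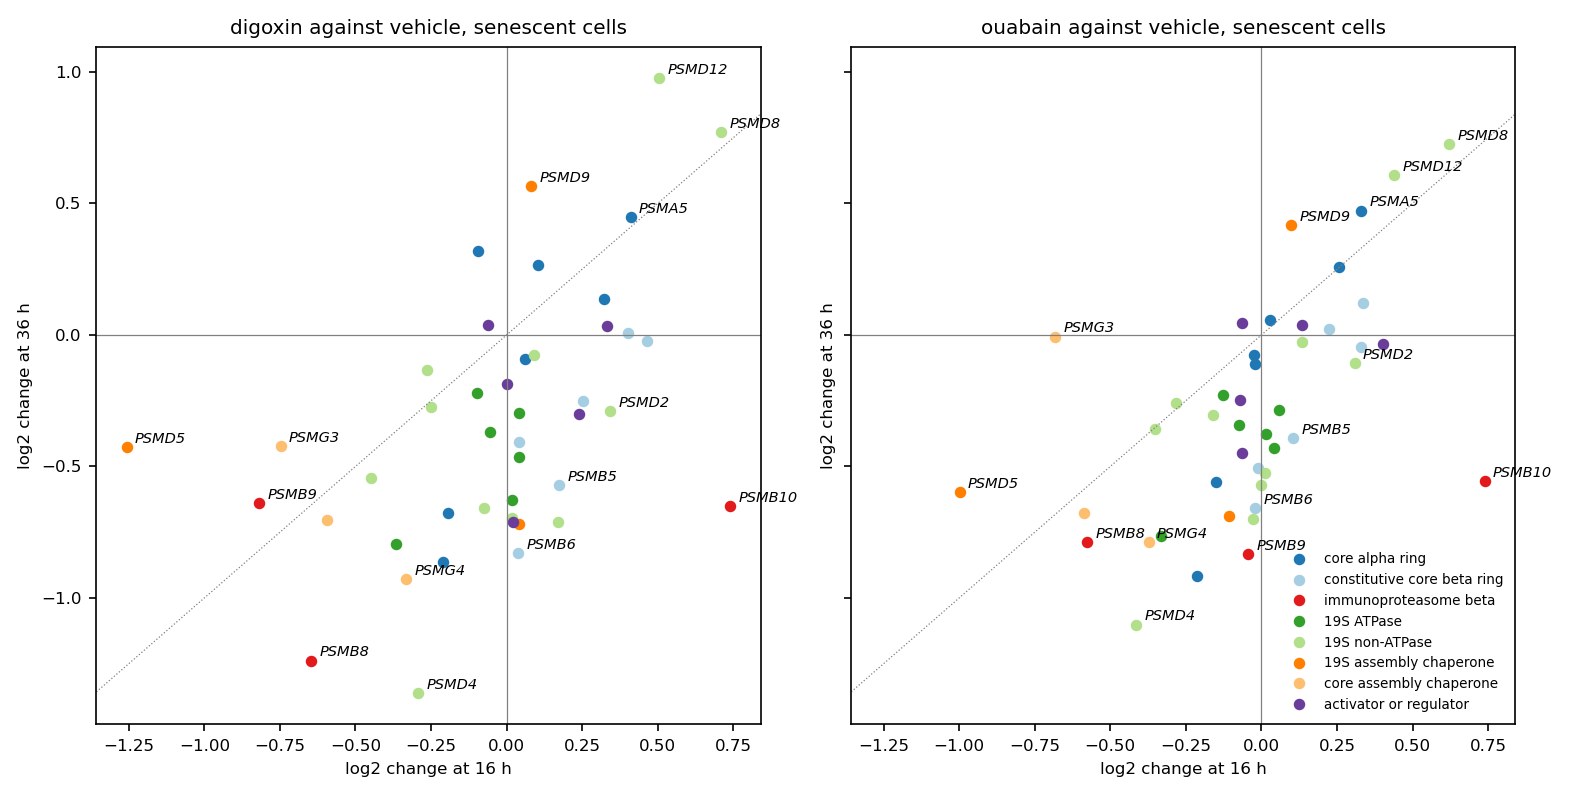
Log2 change against senescent vehicle cells at 16 h (horizontal) and 36 h (vertical) for digoxin (left) and ouabain (right), 1 point for each of 44 genes, coloured by role, with equality dotted. Most points lie below the dotted line, PSMD12, PSMD8, PSMA5 and PSMD9 lie at the upper right, and PSMD5 lies above the line at a 16 h change of -1.26 with digoxin.

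The caspase inhibitor by itself left few differences at 36 h. In proliferating cells 1 gene was lower and none higher (0.834% and 2.75% of all genes). It was PSMD2, with 498, 475 and 487 CPM without and 386, 423 and 447 CPM with the inhibitor (-0.22 ± 0.06, adjusted p = 0.0389, edgeR), a call lost in several alternatives and without any 1 of 5 libraries. In senescent vehicle cells edgeR called none, where 5.27% of all genes rose and 2.14% fell, and DESeq2 called 3. The unadjusted p of edgeR was under 0.05 for 10 of the 44, beside 20.9% of all genes. When the compared groups were fitted alone, 7 rose and 19 fell. With digoxin none was called by edgeR or DESeq2, where edgeR called 0.305% of all genes higher and 0.572% lower. Its unadjusted p was under 0.05 for 3 of the 44, beside 10.6% of all genes. With ouabain PSMD12 was higher (0.25 ± 0.08) and PSMB8 lower (-0.86 ± 0.26), where 5.31% and 3.58% of all genes were. With library size alone none rose and 4 fell there, and each of these 2 calls was lost in 4 fits that left out 1 library.

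Genes that work with the proteasome were described from 5 lists. All 6 genes of ubiquitin and its activation rose in senescence at 16 h (median 0.56), where 26.4% of all genes rose. The 6 included UBA6, an activating enzyme (0.70), and RPS27A, which encodes ubiquitin fused to a ribosomal protein (0.62). With digoxin at 36 h, where 31.6% of all genes rose and 32.4% fell, 2 of the 6 rose and 3 fell (median 0.01). Those that fell were the ubiquitin gene UBB (-0.48) and the activating enzymes UBA1 (-0.21) and UBA6 (-0.15). Of 19 proteasome-bound and shuttle factors, 11 rose and 2 fell in senescence at 16 h, where 26.4% of all genes rose and 25.2% fell. With digoxin at 36 h 8 rose and 7 fell, near the 31.6% and 32.4% of all genes. AKIRIN2, which carries proteasomes into the nucleus, rose by 2.67 and ZFAND2A, a heat-inducible proteasome-binding protein, by 1.76, while PAAF1, a protein of cap assembly, was at -2.24 and UCHL5, a deubiquitinase of the cap, at -1.33. With ouabain at 36 h the counts were 8 and 7, beside 30.2% and 30.8% of all genes (AKIRIN2 at 2.44, ZFAND2A at 1.95).

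In the list of NRF1 and its processing, 5 of 9 genes rose and 1 fell in senescence at 16 h, where 26.4% of all genes rose and 25.2% fell. With digoxin at 36 h 6 rose and 3 fell (median 1.85), where 31.6% of all genes rose and 32.4% fell. The share of falls with digoxin was near that of all genes. NFE2L1 was not called in senescence (-0.06 at 16 h) or with digoxin at 16 h (0.05) and was at -0.54 with digoxin at 36 h. The small MAF partners MAFF (2.78), MAFG (2.35) and MAFK (2.10), the related factor NFE2L2 (2.16) and DDI2, the protease that cuts NRF1 (1.85), rose at 36 h. SEL1L and SYVN1, of the ubiquitin ligase that acts on NRF1 at the endoplasmic reticulum, were at -1.16 and -0.61. With ouabain at 36 h 6 rose and 3 fell as well, beside 30.2% and 30.8% of all genes. Of 11 tested genes of the p97 unfoldase, 3 rose and 1 fell in senescence at 16 h, and 4 rose and 3 fell with digoxin at 36 h. These rises were near those of all genes (26.4% and 31.6%), and VCP itself was at -0.04 with digoxin and not called.

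Of 13 genes of class I antigen presentation, 3 rose and 8 fell in senescence at 16 h, where 26.4% of all genes rose and 25.2% fell. At 36 h 2 rose and 5 fell (26.7% and 25.8% of all genes), and with the inhibitor 3 rose and 5 fell (26.6% and 25.7%). ERAP1, which trims peptides, was at -1.47, NLRC5, the regulator of class I genes, at -0.63 and HLA-B at -0.50, while TAP1, the peptide pump whose start lies beside PSMB9, rose by 0.64. With digoxin at 36 h 6 rose and 2 fell (median 0.07), where 31.6% of all genes rose and 32.4% fell. The 6 included B2M (1.22), HLA-E (0.95) and IRF1 (0.93). PSMB8 fell in the same comparison, and PSMB9 was at -0.64 ± 0.55 (adjusted p = 0.32, edgeR) from 14 counts over 3 libraries. With digoxin and the caspase inhibitor 6 of the 13 rose and 4 fell (median 0.18), against 30.3% and 32.1% of all genes.

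The 2 genes named for partners were lower in senescence, unlike most of the 44 proteasome genes. PSMC3IP, a recombination cofactor, fell 2.22-fold at 16 h, from 10.3, 6.55 and 10.5 to 5.14, 3.16 and 4.11 CPM, and 2.35-fold at 36 h. PSME3IP1, which binds PSME3, fell 1.19-fold and 1.3-fold, and with digoxin went from 33.9, 33.6 and 32.2 to 13.3, 16.4 and 15.2 CPM at 36 h, 2.22-fold lower. PSME3 itself was not called with digoxin.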

How the data were processed

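RNA-seq was measured in 36 libraries, 3 in each of 12 groups taken from the sample labels. The authors deposited raw read counts for each Ensembl gene, made with TopHat2 2.0.11 on hg19 and featureCounts, per the submitters' processing notes. For the counting annotation, the strand setting and the featureCounts version the sources used here give nothing. Totals of 10854351 to 21446415 counts set the precision of each value. Of 57232 genes, 10690 had no count and 18696 passed filterByExpr. Names, gene types, exon lengths and GC content came from GENCODE 29 (GRCh38), and no coordinates were converted. One model with 12 group means was fitted with edgeR 4.0.16 (quasi-likelihood F test, TMM scaling, R 4.3.3), with Benjamini-Hochberg adjustment over all tested genes and calls at an adjusted p under 0.05. SE is the absolute log2 change over the root of F. CPM values use TMM-scaled library sizes. The code was tested on simulated data. For each comparison the 3 largest called changes in each direction and a panel of cutting subunits, activators and the inhibitor were to be named, and other members were named after their values were seen. Members and lists were chosen with earlier results of these data known. Promoters came from RefSeq (GRCh38.p14). Alternatives were other scalings, no filter, a replicate block, length and GC trends, the compared groups alone, DESeq2 1.42.0 and leaving out each library. Some genes of these lists are not reported here by name.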

Additional observations from a re-analysis of the deposited data

Results flagged for a closer look

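The effect of digoxin differed between 36 h and 16 h, by the interaction term of edgeR with adjustment over all genes, for 11 of the named proteasome genes, and that of ouabain for 8. Naming took in the largest called changes of these same comparisons, so the 11 and 8 say nothing on how common such differences are. Over all 44, it was lower for 22 and higher for 3 with digoxin (19.3% and 23.4% of all genes). With ouabain it was lower for 15 and higher for 2 (16.7% and 18.4%). Differences are log2 changes at 36 h minus those at 16 h, each over 3 libraries a group. Causes were not tested.

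With digoxin the effect was higher at 36 h for the assembly genes PSMD5 (0.83 ± 0.13) and PSMD9 (0.48 ± 0.19, adjusted p = 0.0367, edgeR) and for the lid subunit PSMD12 (0.47 ± 0.11). The call for PSMD9 was lost without most of the single libraries and with length and GC trends removed (0.37, adjusted p = 0.136, edgeR). It was lower for PSMB10 (-1.39 ± 0.38), PSMD4 (-1.07 ± 0.16), PSMD13 (-0.88 ± 0.14), PSMB6 (-0.87 ± 0.18) and PSMB5 (-0.75 ± 0.18). Among the activators it was lower for PSME2 (-0.73 ± 0.20), PSME1 (-0.54 ± 0.20) and PSME4 (-0.30 ± 0.12, adjusted p = 0.0493, edgeR). The call for PSME1 was lost in several fits that left out 1 library, and that for PSME4 in most of them, with DESeq2 or its size factors, without the filter and with the replicate block (adjusted p = 0.0559, edgeR).

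With ouabain the effect was higher at 36 h for PSMG3 (0.68 ± 0.23, adjusted p = 0.0209, edgeR), whose ouabain libraries at 36 h spread from 6.28 to 10.5 CPM, and for PSMD5 (0.40 ± 0.13). It was lower for PSMB10 (-1.29 ± 0.37), PSMA4 (-0.70 ± 0.19), PSMD4 (-0.69 ± 0.16), PSMB6 (-0.64 ± 0.18), PSMB5 (-0.50 ± 0.18) and PSME4 (-0.44 ± 0.12). The call for PSMB5 was lost with library size alone (adjusted p = 0.0603, edgeR) and without some single libraries. That for PSMG3 was lost without replicate 1 of ouabain at either time or of vehicle at 16 h. That for PSMD5 was lost without the filter and without replicate 1 of ouabain at 16 h. Both sets rest on the same vehicle libraries.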

How the results depend on the processing

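Of 118 called values named by rule, 31 lost their call under at least 1 alternative and none changed sign. Of 36 counts, 21 moved by over 1.5 times. With library size alone 105 values kept their call, 18 genes rose in senescence with the inhibitor, 2 rose and 24 fell with digoxin at 16 h, 2 rose at 36 h, and 1 rose and 26 fell with ouabain at 16 h. The median of all genes moved by -0.31 with digoxin at 36 h, while the median of the 44 relative to it was -0.36 with TMM and -0.37. With the compared groups alone 11 genes rose in senescence at 16 h, and 7 rose with digoxin at 36 h, with digoxin and inhibitor, and with ouabain and inhibitor. With length and GC trends removed 6 fell with digoxin at 16 h. Of ouabain against digoxin at 36 h, 1 was higher with library size alone, 9 with the groups alone and 1 by DESeq2, where 2 were lower. With the inhibitor 1 was lower by DESeq2 size factors, groups alone and DESeq2.

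For the inhibitor in proliferating cells, 1 was higher by DESeq2, 0 were lower with DESeq2 size factors, no filter or trends removed, and 3 with groups alone. In senescent cells 1 was higher with DESeq2 size factors, 7 with groups alone and 2 by DESeq2. Lower there were 2 with library size alone, 1 with no filter, trends removed or DESeq2, and 19 with groups alone. With digoxin 1 was lower with groups alone. With ouabain 2 were higher with DESeq2 size factors, no filter, groups alone or DESeq2, and 0 with library size alone. Lower were 4 with library size alone, 0 with trends removed and 5 with groups alone. Without the filter 1 gene had a higher ouabain effect at 36 h than at 16 h. The causes were not tested.

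Leaving out 1 library gave 6 to 9 falls with digoxin at 16 h (6 without replicate 1 of digoxin), 4 to 8 rises with ouabain at 16 h, 0 to 1 higher with ouabain than digoxin at 16 h and 0 to 1 lower at 36 h with the inhibitor. It gave 0 to 1 falls with the inhibitor in proliferating cells, 0 to 1 rises and 0 to 2 falls with the inhibitor and ouabain, and 0 to 2 higher ouabain time differences (1 without replicate 1 of ouabain at 36 h or of vehicle at 16 h). The proliferating libraries at 16 h gave 21 to 35 rises in senescence.

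Labels number the replicates 1 to 3 in every group, and same-numbered libraries mostly shared little deviation. Of 48 correlations of same-numbered deviations 3 passed 0.1, among them replicates 1 and 2 of senescence at 16 h (0.260 and 0.140). No comparison had all of its pairs above it (range -0.068 to 0.260). Such correlations cannot show whether equal numbers mark a shared culture or batch. With a replicate block 27 genes fell with digoxin at 36 h, 28 rose in senescence at 16 h, 1 rose with the inhibitor in senescent cells, and 2 named calls were lost. Changes in genes of few counts, such as PSMB9 and PSMB10, are limited by depth, and a call lost there is not a sign of no change.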
